A study of Homo sapiens with 24 samples.

Results

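The regions described here are those whose chromatin accessibility differed between VAL cells after 8 h of CDK9 inhibition (CDK9i) and VAL cells at 0 h. All regions of the 2 deposited lists of this comparison were taken, 11121 with increased and 9260 with decreased accessibility, whatever their size or place. These 20381 regions stand among 37071 calls summed over the 4 comparisons of the series, which fall on 26369 different regions. VAL is a cell line of diffuse large B-cell lymphoma (DLBCL), a cancer of mature B cells, and a single line is one model of that disease. The treated cells received 30 nM AZD4573, an inhibitor of the kinase CDK9, and the lists name the 0 h control DMSO. Each group had 4 libraries, of which 2 were made by a standard protocol from 50000 cells and 2 by Fast-ATAC from 5000 cells by the labels, while the study's methods describe Fast-ATAC on 50000 cells. OCI-LY3, the other DLBCL line of the series, was given the same dose and is set beside VAL at 8 h, as are the VAL cells treated for 3 h, which share their 0 h libraries with the 8 h comparison. Nothing in the labels says that the libraries of a group came from separate cultures.

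CDK9 with a cyclin T forms P-TEFb, the kinase that phosphorylates RNA polymerase II and the factors that hold it paused shortly after the start of a gene, and so lets it move into productive elongation. When CDK9 is inhibited, long-lived transcripts persist while short-lived ones such as those of MYC and MCL1 are lost first. ATAC-seq marks the DNA that a transposase can reach. Accessible DNA lies mostly at promoters, where transcription starts, and at enhancers and insulators further away.

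The lists hold the position of each region, with no count, fold change or p-value for it and no value per library. A region is therefore called increased or decreased as the authors called it, the sequencing depth is unknown, and no spread between libraries could be computed. Intervals given below are 95% Wilson intervals, cover counting error over regions or genes only, and are no test of the treatment. The lists also hold changed regions only, so a gene with no listed region may have been accessible and steady, or closed at both times. The design text of the series calls VAL an activated B-cell like (ABC) line, although it is commonly classed as germinal centre B-cell like, and these lists cannot check either class. Among 8 B cell markers, CD79A and CD79B had an increased region at the promoter and MS4A1, which encodes CD20, had a decreased region inside the gene. At the promoters of 8 myeloid and 8 natural killer cell markers 0 regions were listed, and among 8 T cell markers CD5 and CD8A had an increased one.

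Sequences of single regions of genes described below are shown as examples, and as a set they do not separate the 2 directions, since base content and motifs overlap among them. Each is 200 bases of hg19 (GRCh37), read 5′ to 3′ on the strand of the gene, and capitals mark a match to one of the short motifs searched, on either strand. The first pair is centred on the start sites of PIM3, a survival kinase, and JUNB, an AP-1 transcription factor, both with increased promoters. PIM3 carries 2 matches to the SP/KLF motif GGGGCGGGG, and JUNB one to the TATA motif TATAAA.
PIM3 start site, chr22:50354321-50354520, plus strand: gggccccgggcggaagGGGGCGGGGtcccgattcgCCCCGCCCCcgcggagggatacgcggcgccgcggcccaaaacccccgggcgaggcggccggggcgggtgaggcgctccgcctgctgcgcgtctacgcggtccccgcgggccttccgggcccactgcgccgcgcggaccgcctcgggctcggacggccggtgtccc
JUNB start site, chr19:12902201-12902400, plus strand: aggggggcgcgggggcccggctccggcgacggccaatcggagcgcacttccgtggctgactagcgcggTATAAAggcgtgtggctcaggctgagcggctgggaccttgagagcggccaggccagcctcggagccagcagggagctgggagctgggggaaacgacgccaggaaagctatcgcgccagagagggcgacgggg

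The next pair is centred on the start sites of HDAC9, a histone deacetylase, and GPR183, a receptor that guides B cells within lymphoid tissue, both with decreased promoters. HDAC9 holds one match to the octamer motif ATGCAAAT (OCT) and GPR183 none to any of the 17 motifs.
HDAC9 start site, chr7:18535273-18535472, plus strand: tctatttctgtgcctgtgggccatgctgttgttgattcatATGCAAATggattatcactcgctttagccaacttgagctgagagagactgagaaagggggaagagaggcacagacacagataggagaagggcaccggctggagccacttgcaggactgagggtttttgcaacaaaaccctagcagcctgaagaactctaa
GPR183 start site, chr13:99959554-99959753, minus strand: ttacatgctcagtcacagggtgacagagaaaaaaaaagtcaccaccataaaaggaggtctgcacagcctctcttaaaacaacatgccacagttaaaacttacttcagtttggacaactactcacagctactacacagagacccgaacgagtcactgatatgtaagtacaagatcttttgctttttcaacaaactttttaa

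The following 3 are the centres of increased regions away from the main start sites of GSE1, R3HDM4 and IRF8, genes with many or densely packed increased regions. The GSE1 window holds an SP/KLF and an AP-1 match, the R3HDM4 window a match to the EBF1 motif, and the IRF8 window an octamer.
GSE1 intron, chr16:85255440-85255639, plus strand: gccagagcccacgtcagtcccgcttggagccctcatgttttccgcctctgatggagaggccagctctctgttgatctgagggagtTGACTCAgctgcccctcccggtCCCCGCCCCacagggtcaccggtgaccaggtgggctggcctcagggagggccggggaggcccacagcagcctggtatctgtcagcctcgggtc
R3HDM4 intron, chr19:906594-906793, minus strand: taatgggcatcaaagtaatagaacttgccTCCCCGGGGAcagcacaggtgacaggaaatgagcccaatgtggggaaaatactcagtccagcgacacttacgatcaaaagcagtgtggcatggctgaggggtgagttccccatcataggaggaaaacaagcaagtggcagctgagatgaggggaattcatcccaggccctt
IRF8 intron, chr16:85944259-85944458, plus strand: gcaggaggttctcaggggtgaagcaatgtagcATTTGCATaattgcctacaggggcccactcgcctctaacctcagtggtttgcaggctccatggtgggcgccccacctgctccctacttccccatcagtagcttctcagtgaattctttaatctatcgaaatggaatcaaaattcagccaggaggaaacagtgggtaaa

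The last 4 are the centres of decreased regions of BCL2, TGFBR2 and POU2AF1, genes densely packed with decreased regions. The first BCL2 window carries 2 octamers, the second the PU.1 motif GAGGAAGT, TGFBR2 an AP-1 (TGAGTCA or TGACTCA) and a RUNX (TGTGGTT) match, and POU2AF1 an octamer and an E-box (CACGTG).
BCL2 intron, chr18:60806059-60806258, minus strand: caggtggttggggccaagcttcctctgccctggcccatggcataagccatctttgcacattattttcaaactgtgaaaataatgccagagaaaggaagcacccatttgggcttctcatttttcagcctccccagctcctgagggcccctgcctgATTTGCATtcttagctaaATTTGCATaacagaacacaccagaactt
BCL2 intron, chr18:60903871-60904070, minus strand: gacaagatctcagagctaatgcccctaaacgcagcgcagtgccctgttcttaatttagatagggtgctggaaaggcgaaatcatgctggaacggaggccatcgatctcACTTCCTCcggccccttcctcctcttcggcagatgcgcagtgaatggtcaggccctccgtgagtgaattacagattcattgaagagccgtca
TGFBR2 intron, chr3:30699938-30700137, plus strand: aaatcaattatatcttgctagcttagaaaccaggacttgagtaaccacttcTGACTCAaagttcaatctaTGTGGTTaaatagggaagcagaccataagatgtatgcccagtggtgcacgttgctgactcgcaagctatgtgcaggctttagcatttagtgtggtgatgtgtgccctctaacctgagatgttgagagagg
POU2AF1 upstream region, chr11:111309692-111309891, minus strand: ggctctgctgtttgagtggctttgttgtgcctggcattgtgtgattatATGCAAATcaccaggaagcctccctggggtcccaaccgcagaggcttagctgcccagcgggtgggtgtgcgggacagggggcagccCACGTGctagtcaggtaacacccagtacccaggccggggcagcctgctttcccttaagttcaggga

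The 2 directions fell in different parts of genes. A promoter is here a region that overlaps 1000 bp on either side of any annotated transcription start site (TSS). Of the increased regions 5336 (48.0%) lay at promoters, 1279 (11.5%) at other exons, 2774 (24.9%) in introns and 1732 (15.6%) between genes. Of the decreased regions 1218 (13.2%) lay at promoters, 731 (7.89%) at other exons, 4330 (46.8%) in introns and 2981 (32.2%) between genes. Promoters were thus the most frequent class among opened regions and introns among closed ones. With protein-coding genes alone, DNA between genes (50.4%) came before introns (36.3%) among closed regions.

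The distance to the nearest main (canonical) start of a protein-coding gene had a median of 8531 bp for increased and 69790 bp for decreased regions. More than 100000 bp separated 41.2% of the decreased and 11.6% of the increased regions from such a start. Within 1000 bp of one, the midpoint of the region lay downstream of the start, on the side of the gene body, for 61.2% (interval 59.7 to 62.7) of 4079 increased and 65.3% (61.1 to 69.3) of 510 decreased regions. The median midpoint was 56 bp and 97 bp downstream, so both kinds of promoter region sat a little inside the gene. Among regions away from promoters, the 3′ end of a protein-coding gene, taken as 1000 bp on either side, held 376 of 6571 increased (5.72%) and 211 of 8584 decreased regions (2.46%), with promoters here taken for protein-coding genes alone.

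Increased regions were rich in G and C and decreased regions poor. The median GC content was 58.1% (quartiles 50.8 and 64.2) for increased and 40.7% (37.3 and 45.0) for decreased regions. At promoters the medians were 62.3% and 47.1%, and away from promoters, called distal below, 52.8% and 40.2%. CpG dinucleotides, counted relative to what the base content gives, had a median ratio of 0.708 in increased and 0.392 in decreased promoter regions. Decreased distal regions were also wider, with a median of 1319 bp against 1038 bp.

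Over 5 equal parts of the distal regions by GC content, the share that was increased was 8.75, 15.3, 29.6, 61.9 and 93.6%. Base content and direction thus ran together over the whole range, and not at promoters alone. The same held within chromosomes. On the 20 chromosomes with at least 20 distal regions of each direction, the median GC of increased regions was the higher on 20, by 3.40 percentage points on chromosome X to 15.4 on chromosome 9. Whether base content played a part in the calls, through the libraries or their sequencing, was not tested.

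Chromosomes differed along with their base content. On chromosomes 15, 16, 17, 19, 20 and 22 together 4968 regions were increased and 145 decreased, 97.2% increased, and on chromosomes 2, 3, 4, 13, 18 and X 1218 were increased and 3968 decreased, 23.5% increased. The first 6 hold 42.2 to 48.4% GC and 7.43 to 26.5 protein-coding genes per Mb, the second 6 hold 38.2 to 40.2% and 3.37 to 5.75 per Mb. These 2 groups follow no rule fixed beforehand and serve as a description only. Chromosomes 5, 6 and 8, with 39.5, 39.6 and 40.2% GC and 31.3, 34.2 and 29.5% increased, lie close to the second group but are not in it. Over 23 chromosomes the share increased ran with GC content (Spearman's rho 0.920) and with gene density (0.883), which are themselves linked, and chromosomes are no replicates. At the ends of the range chromosome 22 had 701 increased and 3 decreased regions, and chromosome 4 had 190 and 1013. In OCI-LY3 at 8 h chromosome 15 had 69 increased and 57 decreased regions (54.8% increased), against 401 and 55 in VAL (87.9%), so the order of chromosomes was not the same in both lines.

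**Figure D1:**
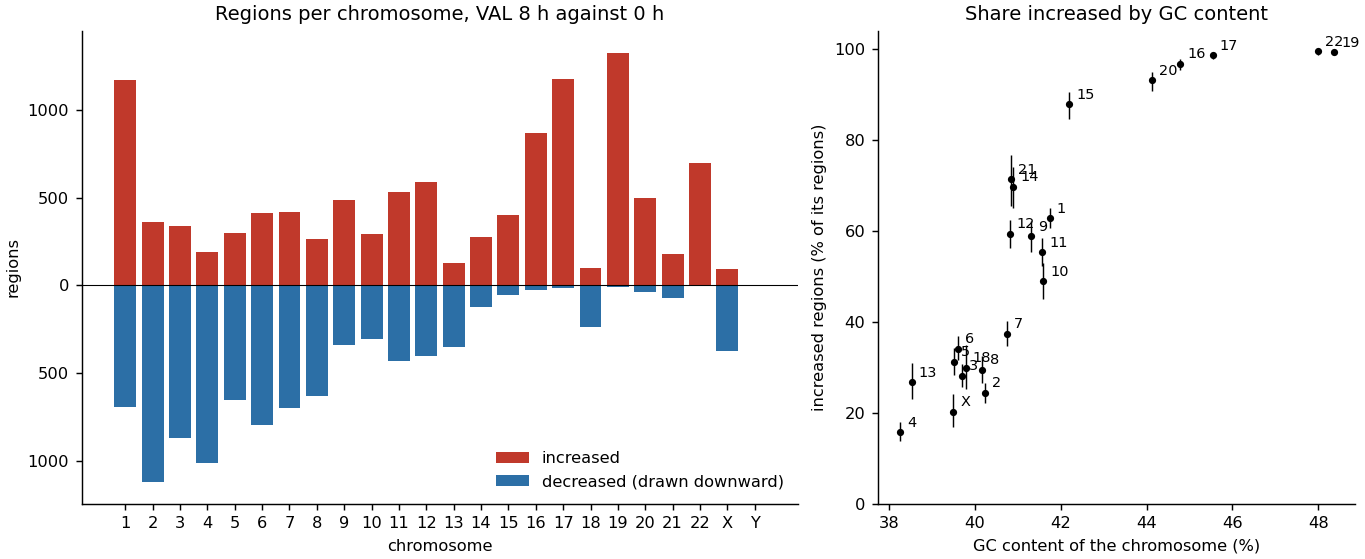
Left, number of increased (upward bars) and decreased (downward bars) VAL 8 h regions on each chromosome. Right, share of the regions of each chromosome that were increased (y axis, %) against its GC content (x axis, %), with 95% Wilson intervals, where chromosomes of high GC content stand near the top chromosome 4, with 15.8% increased, is the lowest.

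Of 20163 annotated protein-coding genes, 5061 (25.1%) had an increased region at a promoter and 681 (3.38%) a decreased one, and 3 genes had both. These shares are the background for every list below. They are shares of all annotated genes, since the accessible peaks that were tested are not used here. When 1000 bp on either side of the canonical start of each gene was taken alone, 4819 genes (95.2% of 5061) kept the increased call and 563 (82.7% of 681) the decreased one. A decreased promoter was therefore more often one of the alternative starts of a gene, as at BCL2, whose only such region lay 158 kb downstream of its canonical start.

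Length separated the 2 groups of genes. Genes with a decreased promoter were long, with a median of 86.9 kb, against 23.1 kb for genes with an increased promoter and 27.2 kb for all protein-coding genes. In 5 equal groups of genes from shortest to longest, 22.9, 31.3, 29.5, 25.2 and 16.5% had an increased promoter. For decreased promoters the shares were 1.41, 1.71, 2.50, 2.93 and 8.33%. The number of annotated starts per gene was not taken into account here. Within the gene extended by 1000 bp at both ends, called its span, 33.9% of genes (6826) held an increased and 12.8% (2586) a decreased region. The share with a decreased region in the span went from 1.98% in the shortest to 37.5% in the longest group, while the share with an increased one stayed between 26.4 and 37.9%.

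The share of genes with an increased promoter rose steadily with the GC content of the start site. From the lowest to the highest group of 200 bp start-site windows by GC content, 6.09, 20.5, 28.8, 34.6 and 38.3% of genes had an increased promoter. The shares with a decreased promoter were 4.66, 2.91, 3.19, 3.72 and 2.57%, with no such rise. They were higher in the lowest group (interval 4.05 to 5.35) than in the highest (2.11 to 3.12). The GC content is that of the canonical start, while a promoter call could lie at any start of the gene. Among long noncoding RNA genes, which make no protein, 8.48% of 18702 had an increased and 2.63% a decreased promoter. Of 212 immunoglobulin gene segments, the pieces that B cells join into antibody genes, 22 had an increased and 0 a decreased one.

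**Figure D2:**
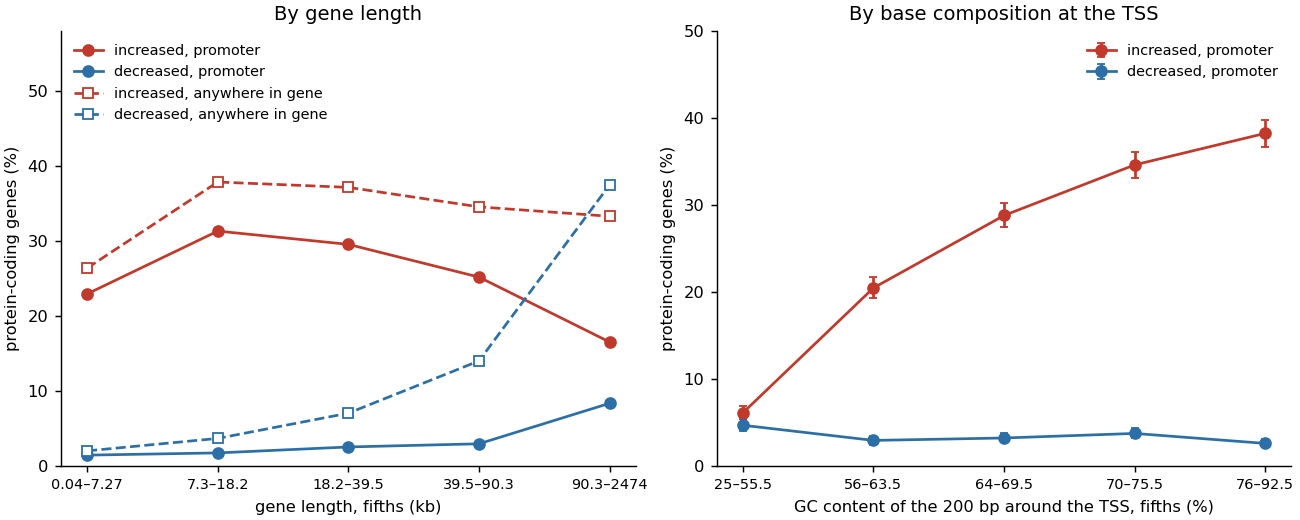
Share of protein-coding genes (y axes, %) with an increased or decreased VAL 8 h region at the promoter or in the span, for 5 equal groups of genes by length in kb (left) and by GC content of the start site in % (right, promoters only, with 95% Wilson intervals). Decreased regions in the span reach 37.5% in the longest genes and increased promoters 38.3% at the start sites of highest GC content.

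Among 48 gene lists, 37 had a share of increased promoters above the 25.1% of all genes, and the interval lay above it for 21 and below it for 7. Decreased promoters were absent from 26 lists, where 3.38% of all genes had one. Only 3 lists had more decreased than increased promoters, the receptors and regulators of germinal centre migration, the synaptic and axonal list and the olfactory receptors. Some lists share members, and the part that the GC content of their start sites had in these shares was not tested.

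The machinery of transcription itself was among the opened sets. Of 45 genes of P-TEFb, its 7SK inhibitor complex and elongation, 22 had an increased promoter (48.9%) and 1 a decreased one. The increased ones included CDK9 itself, HEXIM1 and HEXIM2, which hold P-TEFb inactive, MEPCE, which caps the 7SK RNA, the 4 NELF subunit genes NELFA, NELFB, NELFCD and NELFE of the pausing factor, and the elongation factors SUPT5H and SUPT6H. The decreased one was MLLT3, a subunit of the super elongation complex, at an alternative start and not its canonical one. Among 12 RNA polymerase II subunits 7 were increased and 0 decreased, POLR2A, the largest, among them, as were 18 of 33 genes of the Mediator complex (54.5%), which bridges enhancer-bound factors and the polymerase. In OCI-LY3 7 of the same 45 elongation genes were increased, where 9.3% of all genes had an increased and 1.28% a decreased promoter.

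Many genes of protein synthesis, protein turnover and energy metabolism opened at the promoter, and 0 in the lists of this paragraph closed there. Increased promoters were counted at 25 of 40 translation factors (62.5%), 48 of 89 cytosolic ribosomal proteins (53.9%) and 39 of 78 mitochondrial ribosomal proteins. The counts were 25 of 48 for proteasome genes, 39 of 87 for respiratory chain subunits and 11 of 20 for glycolysis genes (55.0%). The heat shock response had 12 of 28, and the unfolded protein and integrated stress response 12 of 24, with ATF4, its central transcription factor, ATF5, CHAC1 and PPP1R15A among them. By contrast the aminoacyl tRNA synthetases, with 9 of 35, stood near the background.

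The highest share among the 48 lists was that of p53 target genes, which act in growth arrest, DNA repair and death. Of 28, 19 had an increased promoter (67.9%, interval 49.3 to 82.1) and 0 a decreased one, and the VAL 3 h list had 12 and the OCI-LY3 8 h list 5. Over all protein-coding genes at 3 h, 10.3% had an increased and 0.322% a decreased promoter. The 19 increased at 8 h included MDM2 and MDM4, which restrain p53, the cell cycle inhibitor CDKN1A, the death receptors TNFRSF10A and TNFRSF10B, the repair genes DDB2, XPC and POLH, and SESN1 and SESN2, which restrain mTOR. FAS, RRM2B, TP53INP1, ZMAT3 and MDM2 had a decreased region elsewhere in the span.

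Of 11 pro-apoptotic BCL2 family genes, BAD, BAX, BBC3 (PUMA), BID, BIK and BOK had an increased promoter and 0 a decreased one, and PMAIP1, which encodes NOXA, had a decreased region in its span. Of 6 anti-apoptotic ones MCL1 and BCL2L2 had an increased promoter. BCL2L1, which encodes BCL-xL, had an increased intronic region, and BCL2 many decreased ones. In the PIM, PI3K and AKT list 12 of 24 had an increased promoter, among them PIM1, PIM3, AKT1, AKT2, PIK3CD, MTOR and its inhibitors TSC1 and TSC2. In the same list 8 genes held a decreased region in the span, including PIK3CA, PIK3R1 and FOXO3.

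Signalling lists had more increased than decreased promoters, as had protein-coding genes as a whole (5061 and 681). The JAK-STAT list had 16 of 30 increased, with STAT3, STAT6 and the feedback inhibitors SOCS1 and SOCS3, and SOCS6 decreased. The NF-kB list had 12 of 28, with NFKB2, RELA, RELB and the inhibitor gene NFKBIA, and TRAF1 decreased. For the NOTCH pathway 13 of 28 promoters were increased in VAL and 1 in OCI-LY3. The TNF superfamily had 18 of 42, and its decreased promoters were those of the ligands TNFSF10, known as TRAIL, and TNFSF13B, known as BAFF. Among AP-1 and immediate early genes 11 of 37 were increased, near the background, and NR4A2, an orphan nuclear receptor, was decreased at an alternative start.

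Among lists of the cell cycle, chromatin, splicing and lipid synthesis, the interval lay above the background for the cell cycle (30.5 to 61.8%), DNA replication (26.3 to 55.4%) and splicing lists (26.3 to 56.5%), and included it for the DNA repair, deacetylase, chromatin modifier, cohesin, lipid and protease lists. Increased promoters were counted at 16 of 35 cyclins, CDKs and cell cycle kinases, with E2F5 decreased at an alternative start, at 16 of 40 DNA replication genes, with RPA3 decreased, and at 13 of 37 DNA repair genes. Among histone deacetylases and sirtuins 8 of 18 were increased and HDAC9 decreased, and among chromatin modifiers mutated in lymphoma 9 of 21 were increased and CHD2, a remodeller, decreased. CTCF and cohesin genes had 6 of 18, SR and hnRNP splicing factors 15 of 37, cholesterol and fatty acid synthesis 10 of 25 and ubiquitin-specific proteases 18 of 52, with 0 decreased in these 4 lists. Replication-dependent histone genes, with 9 of 67, and chemokines, with 5 of 46, lay below the background. In the MYC network 3 of 11 were increased, and MYC and MYCN decreased. Solute carriers, a large family of transporters, had 75 increased and 10 decreased of 340, close to the background in both directions.

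**Figure D3:**
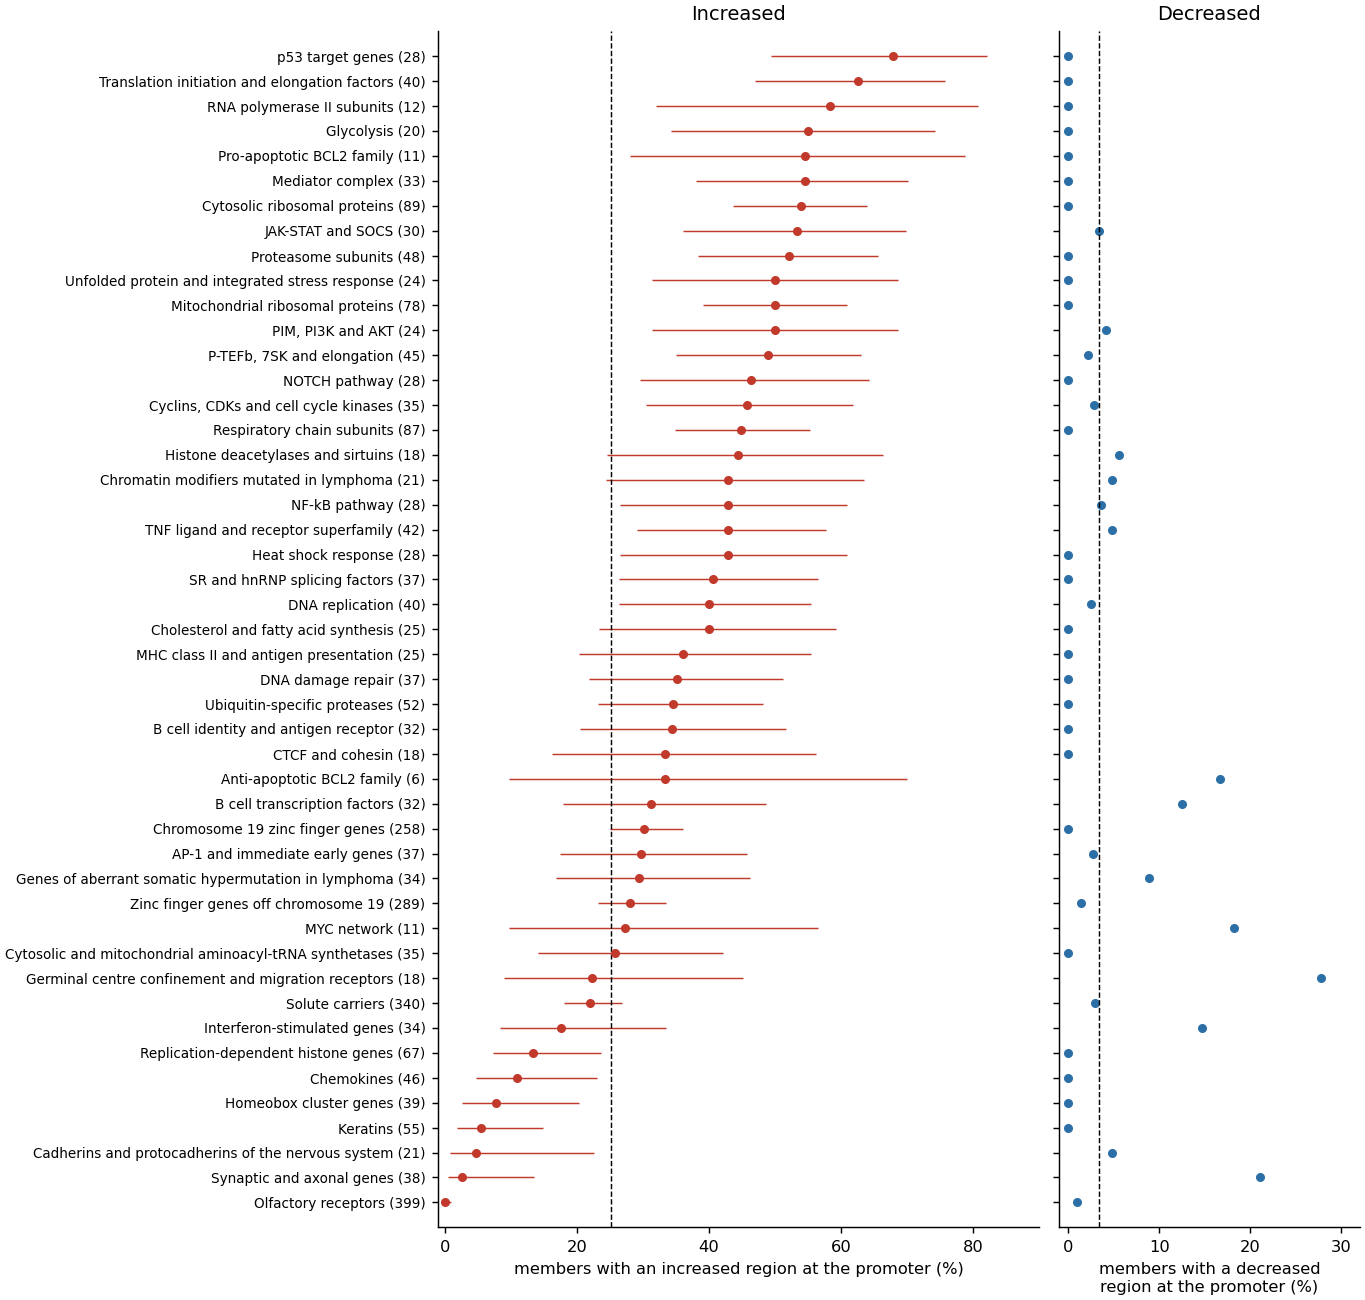
Share of the members of each gene list (1 of the 48 is not shown) with an increased (left, with 95% Wilson intervals) and with a decreased (right) VAL 8 h region at the promoter (x axes, %), with list sizes in brackets and the shares of all protein-coding genes as dashed lines. The p53 targets stand highest at 67.9%, and 26 lists have 0 decreased members.

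Genes that define B cells had regions of both directions. On the side of the antigen receptor, 11 of 32 genes had an increased promoter (34.4%) and 0 a decreased one, CD79A, CD79B, CD40, CD81, PIK3CD, PLCG2 and TNFRSF13C among them, and LYN and MS4A1 had a decreased region elsewhere in the span. The count in OCI-LY3 was 10 of 32. In the MHC and antigen presentation list 9 of 25 promoters were increased and 0 decreased.

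B cell transcription factors were split by place. Of 32, 10 had an increased promoter, ID3, IKZF3, IRF8, MEF2B, POU2F2, RUNX1, RUNX3, SPI1, SPIB and TCF3, while MEF2C, PRDM1, TCF4 and ZEB2 had a decreased one. Among these 4 only the region of PRDM1, the plasma cell regulator, reached within 1000 bp of the canonical start, and it lay upstream without covering it. In their spans 17 of the 32 held a decreased region (53.1%), against 12.8% of all genes, and 13 an increased one. MEF2C held 8 decreased regions, FOXP1 7, and EBF1 and BACH2 6 each, with 0 increased in any of these 4. TCF4 held 4 decreased and 1 increased. These are long genes, of 187 to 629 kb for the 4 first named, and long genes as a whole held more decreased regions. BACH2 had 11 decreased regions at 3 h, more than its 6 at 8 h, whereas EBF1 had 0 at 3 h.

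The list of receptors and regulators that place B cells in the germinal centre had 4 increased and 5 decreased promoters of 18, 22.2% and 27.8%. Increased were CXCR5, the receptor for follicle entry, and S1PR2, GNA13 and ARHGEF1, which form one inhibitory pathway that confines germinal centre B cells. Among the decreased were CCR6, GPR18, GPR183 and RGS1, which dampens chemokine signals. Of the 5, 4 lay within 1000 bp of the canonical start. At 3 h the list had 2 increased and 0 decreased promoters, and in OCI-LY3 at 8 h also 2 and 0, but few genes as a whole had a decreased promoter there (0.322% and 1.28%), so these counts of 0 say little. With 18 members these counts are small.

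Interferon-stimulated genes also went both ways, with 6 of 34 promoters increased (BST2, IRF3, ISG15, MX1, OASL and USP18) and 5 decreased (IFIT2, IFIT5, SAMD9 and SAMD9L at the canonical start, and RSAD2 at an alternative one). The OCI-LY3 8 h lists had 2 and 4. Of 34 genes known as targets of aberrant somatic hypermutation in lymphoma, 10 were increased and BCL2, MYC and TBC1D4 decreased at the promoter, and 11 held a decreased region in the span.

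For increased promoters, lists of genes with little known activity in B cells stood below the background. Olfactory receptors had 0 increased and 4 decreased promoters of 399, keratins 3 and 0 of 55, and HOX genes 3 and 0 of 39. Of 38 genes on the synaptic and axonal list, most of them very long, 1 had an increased and 8 a decreased promoter (21.1%). In the span 28 held a decreased region (73.7%). Both decreased shares were far above those of all genes, but the longest of the 5 length groups had 8.33% and 37.5%. The list also holds long genes with other roles, such as FHIT, WWOX, MACROD2 and CTNNA3. At the canonical start alone the genes of this list had 0 increased and 4 decreased promoters. Zinc finger genes on chromosome 19 had 78 increased promoters of 258 in VAL and 71 in OCI-LY3, with 0 decreased in VAL, beside a background of 25.1% and 9.3%. Off chromosome 19 the count in VAL was 81 increased and 4 decreased of 289.

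Genes with many regions were of a single direction as a rule. Of 9060 genes with a region in the span, 6474 held increased regions only, 2234 decreased only and 352 both. At least 5 increased regions lay in 150 genes, 146 of them with 0 decreased, and at least 5 decreased regions in 188 genes, 146 with 0 increased. The first had a median span of 110 kb and the second of 384 kb, against 29.2 kb for all genes. Only RABGAP1L, DAB1 and STS held at least 3 of each kind. Regions of like direction also lay next to each other, with the nearest listed region of the same direction for 89.3% of increased and 88.4% of decreased regions.

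GSE1, which encodes a coiled-coil protein of a histone-modifying complex, stood apart with 34 increased and 0 decreased regions in 507 kb at chr16:85203131-85709810. Of the 34, 29 lay in introns, 0 at the promoter of GSE1 as annotated for its own transcripts, and 32 had a midpoint over 1000 bp upstream of the canonical start. The regions were 417 to 2401 bp wide with 53.3 to 74.9% GC. The 3 h list held 6 increased regions in the same span, and the OCI-LY3 8 h list 6 as well. The next gene, CYB5R3, a cytochrome b5 reductase, had 13 in 105 kb, 9 of them upstream of its canonical start in a span that overlaps A4GALT and others.

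SEPTIN9, a cytoskeletal GTPase, had 12 increased regions, GNG7, a G protein subunit, 11, and MARK4, a microtubule kinase, 11. Of the MARK4 regions 9 had midpoints over 1000 bp upstream of its canonical start. Its span overlaps at least 6 other genes, PPP1R37 and TRAPPC6A among them. RPTOR, the mTORC1 scaffold, had 11 as well, with 1 at 3 h and 0 in OCI-LY3, whereas GNG7 had 9 and 7. MAD1L1, a spindle checkpoint gene, had 11, and ENSG00000286192, a gene model overlapping it, 13, so that these 2 counts share regions. HOOK2 had 11, in a span that overlaps JUNB and PRDX2. CELSR1 and VAV2 had 10 each, and BCR, the partner of ABL1 in leukaemia, 9. Decreased regions numbered 0 in each of these genes.

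Per length the densest were genes with spans of 18.7 to 33.5 kb, 4 of the 8 on chromosome 19. R3HDM4 had 5 increased regions, or 26.7 per 100 kb of span, ACAP3 26.0, ABHD8 24.9, ARHGAP45 22.0 and MOB3A 21.7. IRF8, a transcription factor of germinal centre B cells, had 5 (19.6 per 100 kb) at chr16:85932722-85956212, with midpoints 126, 3763, 9607, 11590 and 16726 bp from its start. Of these 5 regions 2 were also increased at 3 h and 3 in OCI-LY3. The regions thus ran through the gene and were not limited to its start.

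Among closed genes MARCHF1, a ubiquitin ligase that lowers MHC class II at the surface, had the most decreased regions, 20, of which 18 lay in introns, in 860 kb at chr4:164445450-165305202. The 3 h list held 3 decreased regions there and the OCI-LY3 8 h list 6. PTPRD, a receptor phosphatase, had 19 and 1 increased, DLG2, a synaptic scaffold, 17 and 2 increased, and PDE4D, a cyclic AMP phosphodiesterase, 16. ANKRD44 had 14, all in introns. HDAC9 had 14 and 1 increased, ERBB4 14 and 2 increased, and DMD, the dystrophin gene, 14. AHR, the aryl hydrocarbon receptor, had 15, all upstream of its canonical start, inside an annotated span of 430 kb that runs far past the main transcript.

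BCL2, the anti-apoptotic gene that the t(14;18) translocation activates in many lymphomas, had 15 decreased and 0 increased regions in 197 kb at chr18:60790579-60987361. Of these, 14 lay in introns, 0 covered the canonical start, and midpoints ran from 7.3 to 180.8 kb downstream of it. They were 465 to 2415 bp wide with 38.4 to 51.7% GC. At 3 h 13 decreased regions lay in the span, 11 of them with equal coordinates, so that most were already listed then, and in OCI-LY3 1 did. The regions listed for BCL2 thus lay in the body of the gene and none at its main start.

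Per length DAPP1, an adaptor of B cell receptor signalling, was the densest decreased gene, with 6 regions or 10.8 per 100 kb, 1 of them at its start and the others 5179 to 39080 bp inside. BCL2 followed with 7.55 per 100 kb, then TGFBR2, a TGF-beta receptor, with 6.70, GAB1 with 6.44, TANK, a regulator of TRAF signalling, with 5.92, OPN3 with 5.60, ARID5B with 5.07 and POU2AF1 with 4.74. In ARID5B all 10 were intronic. POU2AF1, the octamer coactivator of B cells, had 5, all upstream of its canonical start, with midpoints from -30649 to -67384 bp relative to it.

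**Figure D4:**
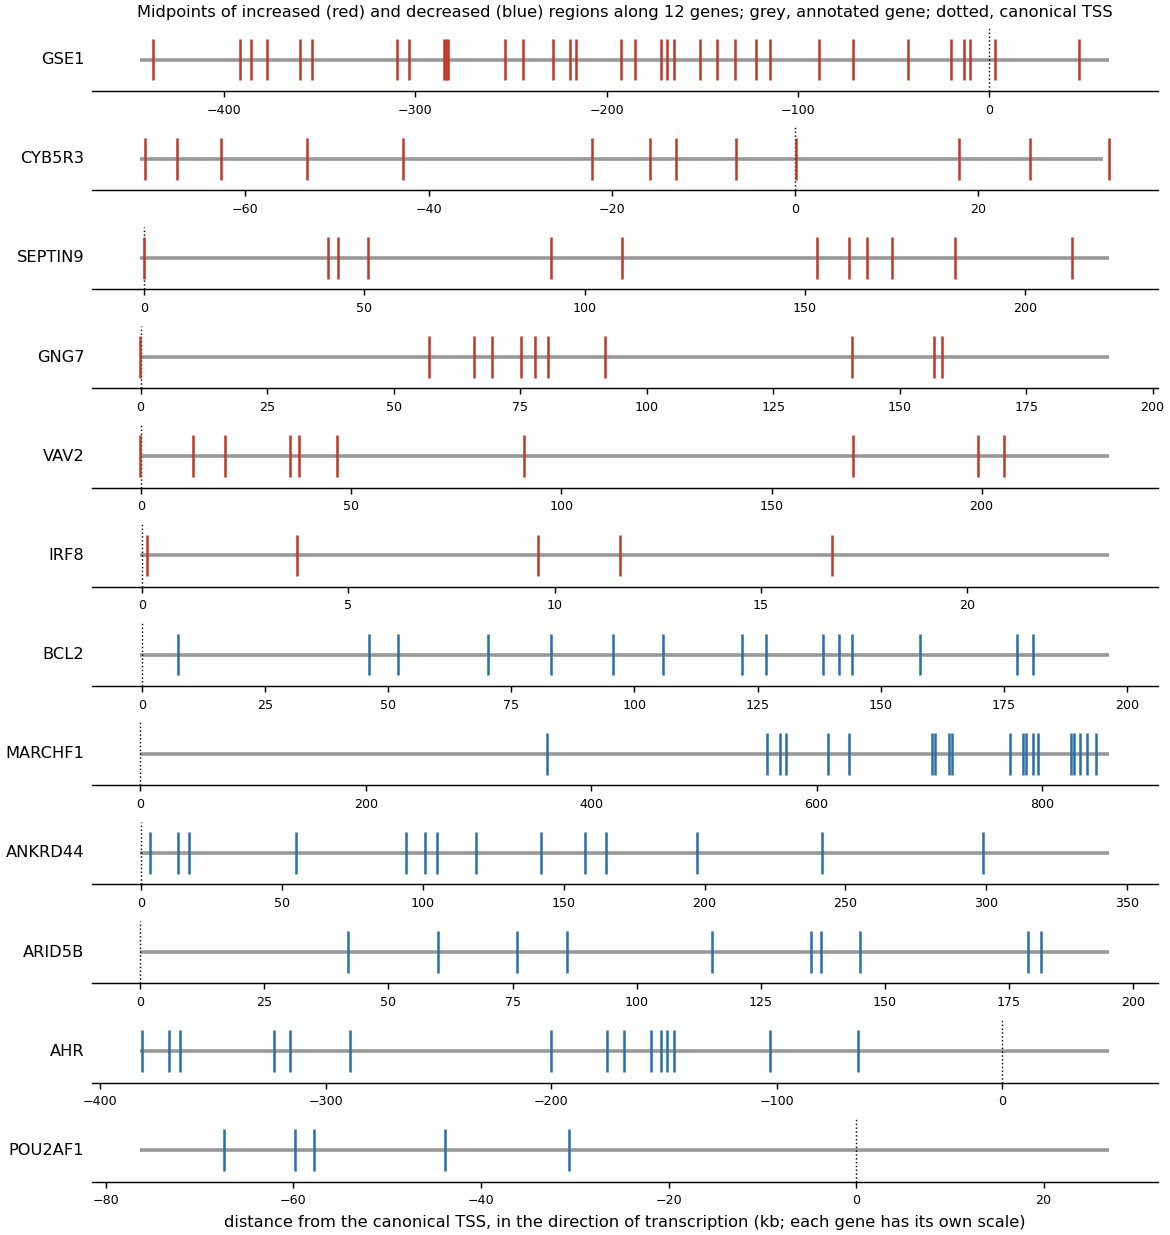
Increased and decreased VAL 8 h regions along 12 genes with many of them, as red and blue ticks at the distance of the region midpoint from the canonical start of the gene in kb (x axis, its own scale for each gene). Increased regions of GSE1 lie mostly upstream of that start, decreased regions of BCL2 run 7.3 to 180.8 kb downstream, and those of AHR are all upstream.

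In windows of 100 kb the densest increased loci lay in gene-rich DNA. On chromosome 19 the window 2000001-2100000 held 13 increased regions over BTBD2, MKNK2, MOB3A and IZUMO4, and on chromosome 22 the window 50700001-50800000 held 13 over MAPK11, MAPK12, PLXNB2, DENND6B and PPP6R2. Windows of 12 lay on chromosome 16 from 700001 to 800000, over 12 genes, on chromosome 19 from 900001 to 1000000, over R3HDM4, KISS1R, ARID3A and WDR18, and on chromosome 22 from 42300001 to 42400000, over SREBF2 and TNFRSF13C, the BAFF receptor gene, among others. The last of the 6, with 11, lay on chromosome 11 from 64800001 to 64900000, over 13 genes. All 6 had 0 decreased regions.

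The densest decreased windows held few genes. The window 60800001-60900000 on chromosome 18, inside BCL2, had 10, and the window 151900001-152000000 on chromosome 3, which holds part of MBNL1, a splicing regulator, had 9. A window on chromosome 5 that overlaps ST8SIA4, a sialyltransferase gene, had 8, and windows that overlap ARID5B, GPC5 and ERCC5 had 7 each. These are counts per window, and except for ARID5B most of the regions in the last 5 windows lay outside the gene named. Each of these windows had 0 increased regions. At least 4 regions fell in 794 of 5494 windows that held any increased region and in 286 of 6103 that held any decreased one, so the opened regions were the more tightly packed.

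Of the 15 genes that the study names beside its accessibility, recovery or super-enhancer results, 10 had increased regions alone, MDM2 had both kinds, MYC had a decreased one, and CXCR4, PIK3AP1 and MED12 had 0. PIM3 had 1 increased region, 2008 bp wide and over its start, which was listed at 3 h too but not in OCI-LY3. JUNB had 1 of 2968 bp over its whole length and MCL1 1 over its start, both also listed at 3 h and in OCI-LY3. PIM1 had 1 over its start at 8 h in VAL and in neither of the other 2 comparisons.

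CDKN1A had 2, both also increased at 3 h and in OCI-LY3, and BBC3 2, of which the one inside the gene was shared with OCI-LY3 and the one over the start was not. BCL2L1 had 1 in an intron 14.1 kb downstream of its start, listed in all 3 comparisons. DTX1, a NOTCH regulator, had 4 and PLCG2, a phospholipase of B cell receptor signalling, 3. MDM2 went both ways, with 1 increased region over the start and 1 decreased in an intron 22.3 kb downstream. The single decreased region of MYC covered its start and was 2714 bp wide, and neither the VAL 3 h lists nor the OCI-LY3 8 h lists held it.

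Motifs were counted as exact matches on either strand in the central 200 bp of each region, so that wide and narrow regions had the same chance, with promoter and distal regions apart. Some motif letters overlap others, and a match does not show that a factor was bound. Besides the motifs spelled out above, those of ETS (CCGGAAGT), NFY (AGCCAAT), CRE (TGACGTCA), E2F (TTTGGCGC or TTTCGCGC) and MEF2 (CTATTTATA or CTATTTTTA) were searched, with EBF1, IRF, YY1, ZBTB33 and CTCF by consensus. Of the 17, 8 were more frequent in increased and 8 in decreased distal regions.

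In distal regions the opened DNA held more SP/KLF, E-box and EBF1 matches and the closed DNA more TATA, IRF, OCT, PU.1, RUNX and MEF2 matches. SP/KLF was found in 3.51% of increased and 0.336% of decreased windows, E-box in 4.98% and 1.99%, and EBF1, the motif of an early B cell factor, in 1.37% and 0.336%. In the other direction IRF was found in 2.25% and 5.55%, OCT in 1.94% and 4.13%, PU.1 in 2.26% and 4.17%, RUNX in 5.06% and 6.60%, MEF2 in 0.778% and 1.48% and TATA in 7.81% and 18.9%. The intervals of the 2 directions did not overlap for these 9. AP-1, with 4.06% and 4.04%, and CTCF, with 0.985% and 1.29%, had overlapping intervals.

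The DNA around the regions differed in the same way in part. In windows 5000 bp away, IRF was found in 2.26% near increased and 3.81% near decreased distal regions, OCT in 1.24% and 2.33%, TATA in 11.5% and 23.3% and SP/KLF in 0.882% and 0.224%. E-box, at 3.16% and 1.52%, and EBF1, at 0.605% and 0.211%, differed there in the same direction as within the regions. PU.1 was found in 1.04% and 0.821% there, RUNX in 3.44% and 3.85% and MEF2 in 0.812% and 1.13%, with overlapping intervals. For PU.1 the order there was the reverse of that within the regions. For RUNX and MEF2 the order was the same, and overlapping intervals do not show that the DNA around the regions was alike. CTCF, at 0.0346% and 0.0124% there, was many times more frequent within the regions of both directions.

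At promoters the comparison can be set beside the 200 bp around 19870 protein-coding start sites, but the windows are unlike. Promoter windows are centred on the region, which may lie at any annotated start, and the others on the start itself. At a protein-coding promoter lay 4550 of the 5336 increased and 676 of the 1218 decreased promoter regions. The part of noncoding starts and window placement in the values below was not tested. SP/KLF was found in 854 of 5336 increased promoter windows, in 62 of 1218 decreased ones (5.09%) and at 3585 of all start sites, and ETS in 4.14%, 0.739% and 5.09% of the 3 sets. CRE was found in 1.24%, 0.164% and 2.01%, and YY1 in 1.72%, 0.0821% and 1.96%. For these motifs the increased promoters were below or near all start sites and the decreased ones far below. IRF was found in 0.862%, 4.43% and 1.82%, OCT in 0.693%, 2.87% and 0.750%, TATA in 2.32%, 10.8% and 6.59%, RUNX in 1.67%, 3.61% and 1.94% and AP-1 in 1.41%, 3.45% and 2.12%. The decreased promoters thus held more of these 5 motifs than either the increased promoters or the start sites as a whole.

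**Figure D5:**
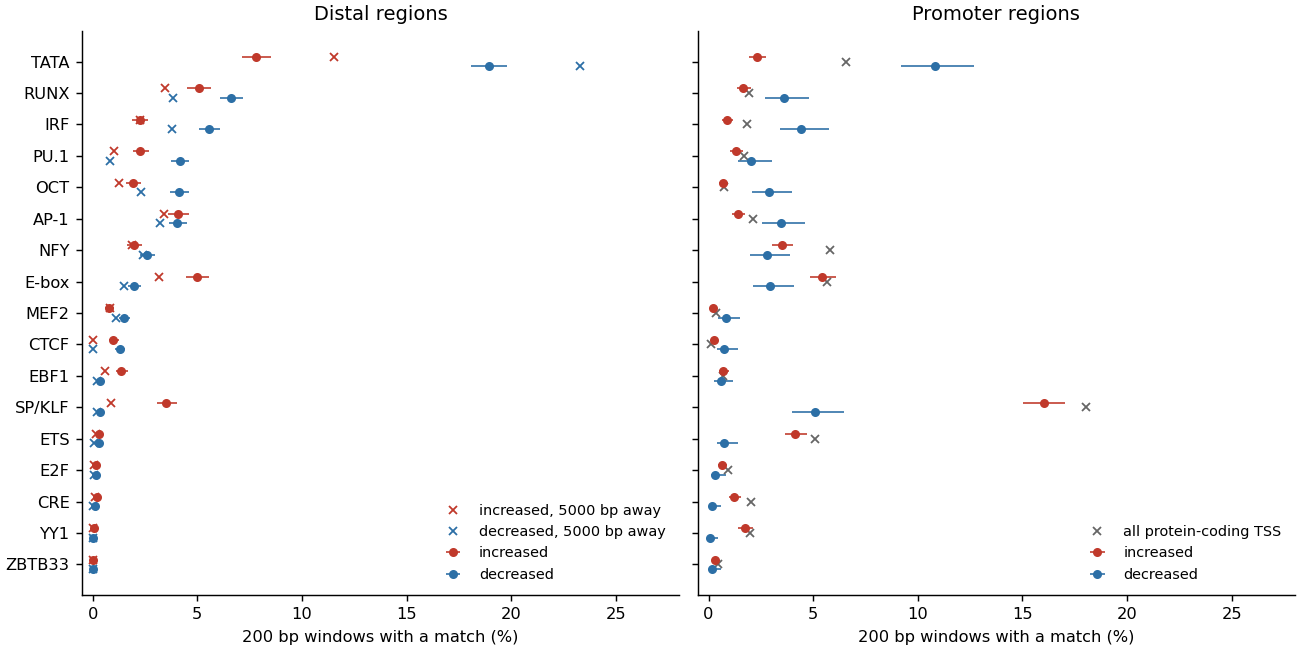
Share of central 200 bp windows with each of 17 motifs (x axis, %) in increased and decreased VAL 8 h regions, distal (left) and promoter regions (right) apart, with 95% Wilson intervals. Crosses give windows 5000 bp away or all protein-coding start sites, and SP/KLF, E-box and EBF1 stand higher in increased distal regions, and TATA, IRF, OCT, PU.1, RUNX and MEF2 in decreased ones.

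OCI-LY3 at 8 h shares no library with VAL and had fewer calls, 4367 increased and 3463 decreased. Regions with equal coordinates and increased in both lines numbered 2327, which is 20.9% of the VAL and 53.3% of the OCI-LY3 list, and those decreased in both 1095, 11.8% and 31.6%. Opposite calls were 71 regions increased in VAL and decreased in OCI-LY3, and 34 the other way. Sharing was highest at promoters that opened, 1355 regions or 25.4% of the VAL and 74.1% of the OCI-LY3 list, and distal increased regions shared 972, 16.8% and 38.3%. Decreased regions shared alike at promoters (143, 11.7% and 31.2%) and away from them (952, 11.8% and 31.7%).

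By gene, 1511 had an increased promoter in both lines, 29.9% of those in VAL and 80.5% of those in OCI-LY3, and 81 a decreased one, 11.9% and 31.3%. Only 16 genes were increased in VAL and decreased in OCI-LY3, and 2 the reverse. VAL at 3 h, which shares the 0 h libraries, had 3545 increased and 1786 decreased regions. The depth and quality of the libraries behind each comparison are not in the lists, so these numbers of calls are given side by side without a test.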

How the data were processed

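ATAC-seq libraries of VAL cells (4 at 0 h and 4 at 8 h of 30 nM AZD4573, among 24 in the series) were grouped by the labels. Per the study's methods the authors used bowtie2 to align reads (hg19), discarded duplicates and reads that were mitochondrial or not unique, ran MACS2 (q 0.05) on each sample, merged the peaks, counted reads with bedtools multicov and compared groups with DESeq2. The fold change limit was 1.5, and the adjusted p limit is given as 0.05 in one place and 0.01 in another. The submitters' processing notes name the same tools. Read shifting for the transposase is not given in the sources used here. The deposited values are other than measurements, namely 3 columns of coordinates in bp for each of 8 lists, with 0 columns of per-sample values, so no test was run, and depth and replicate error are unknown.

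Regions were placed on GRCh37 with GENCODE 44 lifted to it, basic transcripts alone, using pysam 0.24.0, pandas 2.3.3, numpy 2.4.6, scipy 1.17.1 and matplotlib 3.10.9 under Python 3.11.15. Chromosome names and lengths fit the coordinates. The scripts were tested on simulated regions. Motifs allowed 0 mismatches in 200 bp. Members, lists, motifs and named genes were chosen with earlier results of these data known. Named genes were the 12 with most regions in each direction, the 8 densest among those with at least 5, the 6 densest windows of 100000 bp, genes with at least 3 regions of each direction, list members and 15 genes the study names. Some planned items are not reported here.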

Additional observations from a re-analysis of the deposited data

How the results depend on the processing

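No paired analysis was possible because the lists give coordinates and nothing for single libraries. For the same reason leaving out a library, a stricter threshold on the calls, a fit with the protocol as a term and a comparison of the 2 protocols could not be run, and depth limits every count in a way that cannot be stated. The share of increased regions of VAL at 8 h was 53.4% by base pairs in place of regions, 51.4% without chromosome 19 and 43.4% without chromosomes 16, 17, 19 and 22, so that with those 4 left out most regions were decreased. The share at promoters moved with their definition, to 46.0% of increased and 11.8% of decreased regions with 500 bp on either side of a TSS, 51.9% and 16.2% with 2000 bp, and 40.9% and 7.30% with protein-coding genes alone. With protein-coding genes alone, introns held 22.8% of increased and 36.3% of decreased regions, DNA between genes 25.3% and 50.4%, and other exons 6.03% of decreased ones. Among decreased regions DNA between genes then came before introns. With the span extended by 10000 bp, 350 genes held at least 5 increased regions. The median GC content was 61.0% and 41.5% in the central 200 bp.

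The other 35 values that answer a comparison stayed within their limits of counting error or within 1.5 times, the shares with OCI-LY3 (20.9% and 11.8%) under every overlap rule tried among them. Of the further values for single lists and motifs, 341 stayed within these limits and 247 moved. Decreased counts of the gene lists depended on the definition more than increased ones, with 7 of 48 lists within 1.5 times when the whole span was counted in place of the promoter, 42 at the canonical start alone, and 45 and 47 with 2000 and 500 bp, against 38, 46, 48 and 48 for increased counts. Genes with an increased promoter numbered 4646 to 5259 and with a decreased one 543 to 760 over the alternatives. Some motifs changed order with the window, E2F and YY1 in the central 100 bp of distal regions, AP-1 in 500 bp, AP-1 and CTCF in whole regions, and NFY in whole promoter regions. An alternative chosen after seeing the data left out matches that occur, with 10 bases on either side, more than 10 times in the genome, since the genome copy was not masked for repeats. OCT was then found in 1.80% of increased and 3.79% of decreased distal windows and TATA in 7.45% and 18.4%, and the counts of motifs more frequent in increased regions stayed at 8 and 9. Counts at the canonical start alone were also chosen after seeing the data.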
